A study of Saccharomyces cerevisiae with 12 samples.

Results

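The genes for the proteins of the cytosolic ribosome were followed in the haploid yeast strain BY4742 (Saccharomyces cerevisiae, genotype given as WT) grown in 4 media. Members were taken by name: every gene called RPL or RPS with digits and an optional A or B, plus the stalk genes RPP0, RPP1A, RPP1B, RPP2A and RPP2B. This gave 137 genes among 7127 yeast rows of the count table, 81 of the large subunit (5 of them stalk genes) and 56 of the small subunit. They form 59 pairs of A and B copies (118 genes) and 19 single-copy genes. Glucose was at 2% or 0.5% in these media and potassium (K) at 7 or 1 mM, and each of the 4 groups held 3 independent biological replicates by the labels, for 12 RNA sequencing libraries. Lowering potassium from 7 to 1 mM is called potassium restriction, and lowering glucose from 2% to 0.5% is called glucose restriction. The study asked whether the former acts like the latter on survival in stationary culture. All 12 libraries carried 1 batch label. Growth stage at harvest was not given in the sources used here. LEU2, LYS2 and URA3, which this strain lacks, were listed at 0 in every library, while HIS3, of which it keeps a part, lay between 3.70 and 177 CPM (counts divided by the library's total yeast counts and given on a common scale). The alpha-cell receptor gene STE3 lay between 23.2 and 206 CPM, and the a-cell receptor gene STE2 between 7.18 and 17.7 CPM.

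Each cytosolic ribosome carries a single copy of most of these proteins, so the cell needs them in matched amounts. A whole-genome duplication left many of them with a pair of genes, and the copies encode the same or nearly the same protein from different promoters. Their transcription in yeast follows growth through Rap1, Fhl1 and the coactivator Ifh1, with Sfp1 and Hmo1 at subsets of promoters. The pathways of target of rapamycin and protein kinase A act on these factors, and the corepressor Crf1 competes with Ifh1 for Fhl1. Many of the genes have an intron, which few other yeast genes do. In these data 89 members had an intron in the coding region, of which RPL7A and RPL7B had 2, against 329 of 6008 protein-coding genes overall.

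The copies of a pair differ little in sequence. Coding identity ran from 68.9% for RPP1 to 99.4% for RPL1, with a median of 93.2%, and 21 of the 59 pairs encode identical proteins. For 52 pairs at least 50% of the 100-base windows of the coding sequence were distinct from the other copy. Counts of the remaining pairs, such as RPL35 (23.1% of windows distinct) and RPL1 (38.7%), may be split unevenly by the authors' counting and are uncertain. The stretches of 60 coding bases with the most differences are shown for RPL9 and RPS22, the pairs that carry most of the results. RPL1 is shown as a pair with few differences. Capitals mark bases that differ between the copies, in 5′ to 3′ order on the coding strand.

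RPL9A: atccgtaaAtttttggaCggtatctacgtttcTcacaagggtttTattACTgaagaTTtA
RPL9B: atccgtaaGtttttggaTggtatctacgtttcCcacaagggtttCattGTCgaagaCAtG
RPS22A: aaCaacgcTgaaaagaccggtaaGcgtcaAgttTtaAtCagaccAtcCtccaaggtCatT
RPS22B: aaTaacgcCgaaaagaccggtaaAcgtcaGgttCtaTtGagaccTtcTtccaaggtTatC
RPL1A: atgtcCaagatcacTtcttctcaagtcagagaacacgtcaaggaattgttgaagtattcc
RPL1B: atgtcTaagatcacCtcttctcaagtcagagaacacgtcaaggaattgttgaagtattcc

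The RPL9 copies differ at 36 of 576 coding bases and the RPS22 copies at 41 of 393, spread so that 97.7% of windows were distinct for RPL9 and all of them for RPS22. RPL1A and RPL1B differ at 4 of 654 coding bases. In genome build R64, the coding region of RPL9A lies on chromosome VII (227754 to 228329, minus strand) and that of RPL9B on chromosome XIV (499681 to 500256, plus strand). RPS22A lies on chromosome X (74910 to 75302, minus strand) and RPS22B on chromosome XII (856442 to 857317, plus strand).

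The windows from 500 to 201 bases before the start codon are shown for the RPL9 copies (RPL9A chrVII:228530-228829, minus strand; RPL9B chrXIV:499181-499480, plus strand; build R64, RefSeq annotation), because their levels moved in opposite directions with glucose restriction at 7 mM K. Capitals mark a match to the Rap1 letters ACCCNNACA.

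RPL9A: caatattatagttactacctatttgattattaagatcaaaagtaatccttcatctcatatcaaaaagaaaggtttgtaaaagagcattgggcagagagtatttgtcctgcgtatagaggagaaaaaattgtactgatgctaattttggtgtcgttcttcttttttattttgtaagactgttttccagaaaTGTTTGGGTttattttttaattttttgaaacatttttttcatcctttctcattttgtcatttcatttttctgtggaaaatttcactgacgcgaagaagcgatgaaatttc
RPL9B: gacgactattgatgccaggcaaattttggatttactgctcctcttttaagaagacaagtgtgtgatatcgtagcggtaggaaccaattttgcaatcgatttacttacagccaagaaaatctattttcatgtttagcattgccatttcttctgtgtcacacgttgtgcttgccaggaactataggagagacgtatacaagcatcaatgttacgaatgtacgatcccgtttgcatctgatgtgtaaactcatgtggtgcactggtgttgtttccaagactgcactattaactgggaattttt

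The RPL9A window held 1 match, on the minus strand, that begins 310 bases before the start codon, and the RPL9B window held none. Nearer the start codon than the window shown, RPL9B held 1 match to the Fhl1 letters GACGCA. RPL9A held no Fhl1 match within 500 bases before the start codon. The part of these matches in the levels was not tested. Within 500 bases before the start codon, on both strands, the Rap1 letters were found at 54 of 137 members (39.4%) and at 5.49% of 5989 promoters. The window from 250 before to 50 after the start codon held them at 12 members (8.76%) and at 2.84% of promoters. For the Fhl1 letters GACGCA the shares within 500 bases were 15.3% of members and 10.9% of promoters. For the Abf1 motif they were 17.5% and 22.7%, and for the Tbf1 letters AACCCTAA 0.730% and 1.45%.

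The libraries held 5634205 to 7036345 counts at yeast rows, and rows with WBGene identifiers, not analysed here, held 34.0% to 41.6% of the whole table's counts. Of the yeast genes, 6127 passed the filter on low counts, among them 134 members. RPL39 did not pass, and RPL41A and RPL41B, with coding sequences of 78 bases, were listed at 0 in every library. Replicate 2 at 0.5% glucose and 7 mM K stood apart. Across genes, its log2 CPM had a Pearson r of 0.882 with replicate 1 and 0.891 with replicate 3, which had 0.987 with each other. All 134 members were lower in it than in both partners, by a median of -1.79 on the log2 scale (range -3.52 to -0.16), while the median over all genes was -0.09. Replicate 3 at 0.5% glucose and 1 mM K was lower by a median of -0.38 for the members. Most counts and medians that rest on the first of these libraries are given with and without it, as are most changes of named genes. Counts of groups that do not overlap, of members above or below 0 and median absolute changes of ratios are given only with it.

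Levels were compared between genes as CPM per kb of coding length, averaged over the 12 libraries after scaling by the trimmed mean of M-values (TMM). RPL10, a late-joining protein of the large subunit, had the highest level, 2401 CPM per kb. RPL39 had the lowest above 0. Short genes gave low values. The 10 members with coding sequences under 210 bases reached at most 120 CPM per kb, and over all 137 genes Spearman's rho between length and level was 0.40, as a description. For the 67 of 78 proteins with coding sequences of at least 300 bases, the summed level of all copies ran from 571 to 2401 CPM per kb, with a median of 1209. The median was 1240 for the 16 single-copy proteins among them and 1200.2 for the sum of both copies of the other 51.

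**Figure D1:**
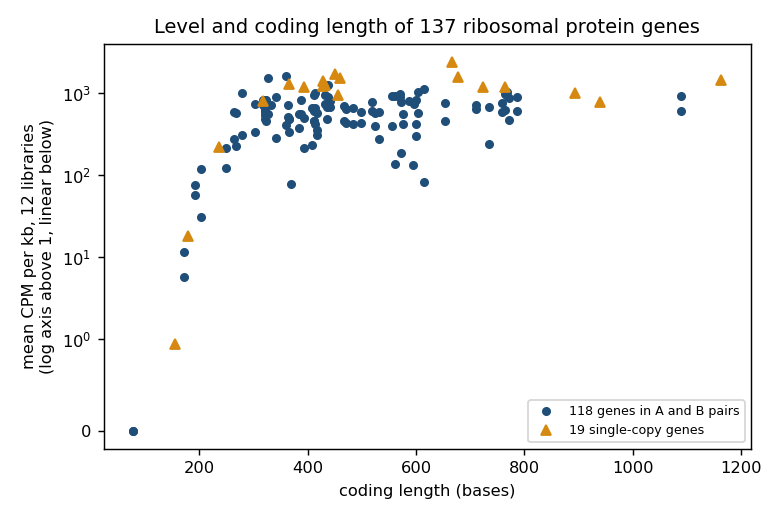
Mean CPM per kb of coding sequence over 12 libraries (vertical, log axis above 1 and linear below) against coding length in bases (horizontal) for 137 genes, circles for genes in pairs and triangles for single-copy genes. The 10 genes under 210 bases all lie at or under 120 CPM per kb, and RPL41A and RPL41B lie at 0.

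Within pairs the split was often unequal. The most unequal of the 56 pairs tested was RPL15, a large-subunit protein, with 91.7% of the pair's level per kb from the A copy. RPS9, of the small subunit, had 13.7% from its A copy. The most equal were RPL19 at 49.4%, RPP1 at 49.0% and RPS10 at 51.4% from the A copy. RPL41, RPS28 and RPS29 stayed out of the ratio tests, which asked for a mean of 10 CPM in both copies. The weaker copy of RPS30, just inside, had 11.4 CPM, and that of RPS28, just outside, had 6.49 CPM.

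The members' share of yeast counts was higher at 1 mM than at 7 mM K. At 2% glucose it was 3.61%, 3.69% and 3.75% at 7 mM K and 6.17%, 5.97% and 6.94% at 1 mM K in replicates 1 to 3. At 0.5% glucose it was 3.84%, 0.841% and 3.70% at 7 mM K and 7.50%, 7.01% and 4.31% at 1 mM K. At each glucose level the 1 mM K libraries all lay above the 7 mM K libraries, and the lowest 1 mM K share was that of replicate 3 at 0.5% glucose. The group means were 3.69% ± 0.0706, 6.36% ± 0.515, 2.79% ± 1.69 and 6.27% ± 1.72 in the same order (SD, n = 3). The mean share at ribosomal RNA genes was also higher at 1 mM K. It went from 0.910% ± 0.112 to 1.63% ± 0.563 at 2% glucose. At 0.5% glucose it went from 1.31% ± 0.123 to 2.46% ± 0.167. The 2% glucose groups overlapped, with replicate 3 at 1 mM K (0.989%) under replicate 2 at 7 mM K (1.02%). This share was also higher at 0.5% than at 2% glucose, without overlap at either potassium level. Why it moved was not tested. With ribosomal RNA genes left out of the total, the members' share at 2% glucose was 3.65%, 3.73% and 3.78% at 7 mM K. At 1 mM K it was 6.30%, 6.08% and 7.01%. At 0.5% glucose it was 3.90%, 0.852% and 3.75% at 7 mM K and 7.67%, 7.20% and 4.42% at 1 mM K. In bulk RNA a share cannot tell a change in some cells from a change in all of them, nor more of these transcripts from less of the others.

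**Figure D2:**
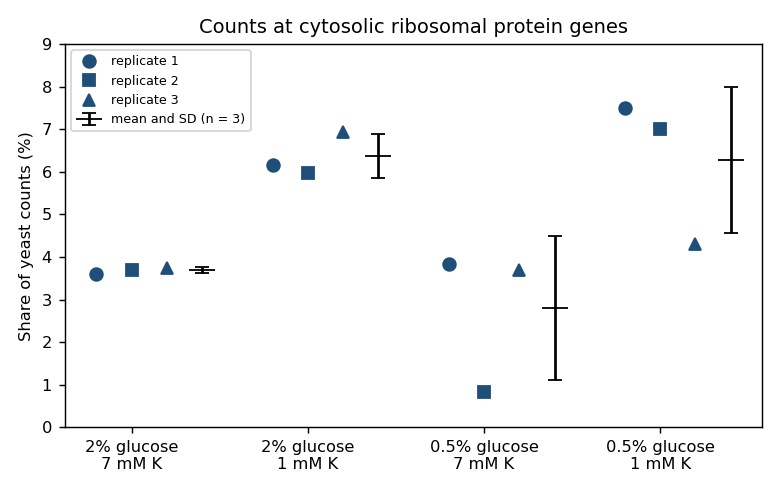
Share of yeast counts at the 137 ribosomal protein genes (percent, vertical) by medium, with 1 symbol per replicate and the mean ± SD of 3 libraries in black. The libraries at 1 mM K lie above those at 7 mM K at each glucose level, and replicate 2 at 0.5% glucose and 7 mM K lies at 0.841%.

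Potassium restriction at 2% glucose gave higher levels of ribosomal protein transcripts across both subunits. The median log2 fold change of the 134 members tested was 0.59, against 0.00 over all genes, and 128 members had groups that did not overlap, all higher (31.6% of all genes were higher without overlap). By edgeR's quasi-likelihood test, 14 members rose and 0 fell at a Benjamini-Hochberg adjusted p under 0.05, where 13.1% of all genes rose and 15.0% fell. Without replicate 2 at 0.5% glucose and 7 mM K, 118 rose and 0 fell, where 26.6% of all genes rose and 23.9% fell. That library is in neither group of this comparison and enters only through the shared fit. At an unadjusted p under 0.05, 30 were higher and 0 lower, and by DESeq2 20 rose and 0 fell. The median was alike for the large subunit without its stalk (0.59, 73 genes), the small subunit (0.58, 56 genes), genes with an intron (0.58, 88 genes) and genes without one (0.59, 46 genes).

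The members that rose most were RPS22B and RPS22A, the copies of a small-subunit protein, and RPS9A. RPS22B stood at 21.2, 18.0 and 18.3 CPM at 7 mM K and at 127, 94.1 and 123 CPM at 1 mM K, a log2 fold change of 2.58 ± 0.15 (SE, edgeR adjusted p = 8.09e-07). The groups lay far apart. RPS22A stood at 84.7, 75.7 and 92.9 CPM and then at 226, 202 and 314 CPM, a change of 1.55 ± 0.45 (edgeR adjusted p = 0.0248) that did not pass without any 1 of the 7 mM K libraries or replicate 3 at 1 mM K (1.33 to 1.70 over all libraries left out). RPS9A, the weaker copy of its pair, stood at 30.1, 31.8 and 23.0 CPM and then at 78.1, 88.9 and 166 CPM, a change of 1.97 ± 0.43 (edgeR adjusted p = 0.00574). Its 3 libraries at 1 mM K varied more than those of the other genes named here, and replicate 3 was the highest. RPL18B rose by 1.32 ± 0.23 (edgeR adjusted p = 0.00142).

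Potassium restriction at 0.5% glucose also gave higher levels across the members. The median of the members was 1.36, against -0.02 over all genes, and 0.96 without replicate 2 at 7 mM K. With it 113 members rose and 0 fell by edgeR, where 23.5% of all genes rose and 24.9% fell (126 and 0 at an unadjusted p under 0.05, and 126 and 0 by DESeq2), and without it 122 rose and 0 fell, where 29.6% of all genes rose and 28.2% fell. Groups did not overlap for 129 members, all higher (27.1% of all genes). In 40 of the 58 pairs with both copies tested, both copies rose, and in 17 pairs 1 copy did. Without replicate 2 at 7 mM K these were 47 and 10. All 5 stalk genes rose, with a median of 1.63 (1.27 without the library). At 2% glucose 0 of 5 passed the test in edgeR and in DESeq2, and 2 had an unadjusted p under 0.05 in edgeR. Without the library 4 passed at 2% glucose, where 26.6% of all genes rose. The difference between the glucose levels, tested as such, passed for 1 of the 5, RPP0. That call was lost with library totals, upper-quartile or WBGene scaling.

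The stalk of the large subunit recruits the translation factors that hydrolyse GTP. RPP0, its base, stood at 638, 566 and 689 CPM at 2% glucose and 7 mM K, and at 734, 841 and 959 CPM at 1 mM K. At 0.5% glucose it stood at 421, 151 and 367 CPM at 7 mM K and at 1262, 1251 and 979 CPM at 1 mM K. The 0.5% glucose groups thus lay on both sides of the 2% glucose groups. RPP0 rose by 1.89 ± 0.33 with potassium restriction at 0.5% glucose (edgeR adjusted p = 0.000749), or 1.57 without replicate 2. Of the acidic proteins that bind it, RPP2B had the widest course: 272, 264 and 253 CPM, then 315, 312 and 322 CPM at 2% glucose, against 121, 21.4 and 98.4 CPM, then 328, 308 and 259 CPM at 0.5% glucose. With glucose restriction at 7 mM K, RPP2B fell by 1.71 on the log2 scale (SE 0.43, edgeR adjusted p = 0.0100), or by 1.26 without the library, the lowest change among the members in that comparison. The call was lost in the compared groups alone and with WBGene scaling. RPP1A, RPP1B and RPP2A rose at 0.5% glucose by 1.30 ± 0.24, 1.40 ± 0.36 and 1.63 ± 0.34 with potassium restriction (edgeR adjusted p = 0.00113, 0.00746 and 0.00217), or by 1.02, 1.02 and 1.27 without replicate 2. The call of RPP1B was lost in the compared groups alone and with WBGene scaling. RPL10 stood between 1676 and 1970 CPM in the 1 mM K group at 0.5% glucose and at 1302, 347 and 1216 CPM at 7 mM K. Its change of 0.96 ± 0.38 missed the threshold (edgeR adjusted p = 0.0568), and without replicate 2 it was 0.57 and passed.

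**Figure D3:**
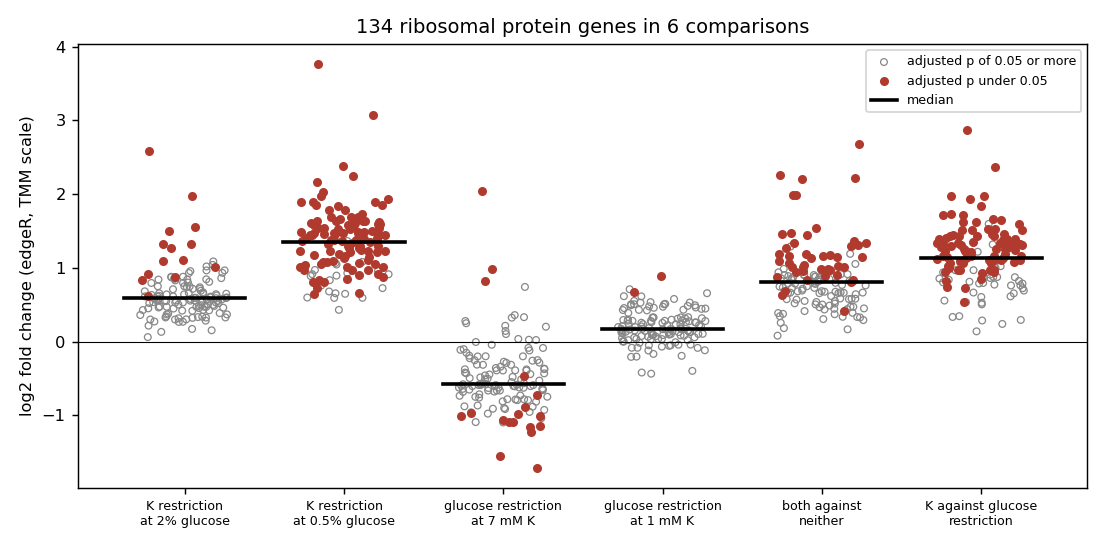
Log2 fold change (edgeR, TMM scale, vertical) of 134 ribosomal protein genes in 6 comparisons, 1 point per gene, filled where the adjusted p was under 0.05, with the median as a bar. Medians lie at 0.59 and 1.36 for potassium restriction, at -0.58 and 0.18 for glucose restriction, at 0.81 for both against neither and at 1.14 for potassium against glucose restriction.

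With glucose restriction at 7 mM K most members were lower, 118 of 134 below 0 and 16 above. Their median was -0.58, against 0.03 over all genes, but -0.18 without replicate 2. By edgeR 3 rose and 15 fell (16.9% and 17.0% of all genes), and without that library 13 rose and 25 fell (22.0% and 21.8% of all genes). Groups did not overlap for 72 members that were lower and 2 that were higher (26.0% and 25.3% of all genes). RPS22B, RPL18B and RPL9B rose, and RPP2B, RPL9A and RPL37A had the lowest changes among those that fell. RPL37A, of the large subunit, stood at 68.4, 66.3 and 57.2 CPM at 2% glucose and at 40.7, 7.80 and 32.6 CPM at 0.5% glucose, a change of -1.23 ± 0.40 (edgeR adjusted p = 0.0330), or -0.80 without replicate 2. Its call was lost without any 1 of the libraries at 2% glucose and 7 mM K (-1.64 to -0.80 over all libraries left out) and with library totals, upper-quartile or WBGene scaling, or the compared groups alone.

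Glucose restriction at 1 mM K moved few members. By edgeR 2 rose, RPL9A and RPL18B, and 0 fell (16.3% and 18.4% of all genes), with a median of 0.18 that was -0.05 with library totals and -0.23 with scaling by WBGene counts. At an unadjusted p under 0.05, 3 were higher and 0 lower, and by DESeq2 2 rose and 0 fell. Without replicate 2 at 0.5% glucose and 7 mM K, which is in neither group, 30 rose and 2 fell (24.2% and 26.9% of all genes). Groups did not overlap for 28 members that were higher and 1 that was lower (25.7% and 29.0% of all genes). RPL18B rose by 0.67 ± 0.22 (edgeR adjusted p = 0.0364), a call lost without 8 of the 12 libraries in turn (0.49 to 0.81), with a replicate block (0.66) and with library totals, upper-quartile or WBGene scaling. The call of RPL9A was lost with library totals and with WBGene scaling.

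With both restrictions against neither, 45 members rose and 0 fell by edgeR (22.8% and 24.5% of all genes; 67 and 0 at an unadjusted p under 0.05, 62 and 0 by DESeq2), and 123 rose and 0 fell without replicate 2 at 0.5% glucose and 7 mM K, again in neither group (33.4% and 31.3% of all genes). The median was 0.81, and 121 members were higher without overlap (35.6% of all genes). RPS22B, RPS22A and RPL9A rose most, by 2.68 ± 0.15, 2.26 ± 0.46 and 2.21 ± 0.25 (edgeR adjusted p = 3.05e-07, 0.00202 and 3.47e-05). The single restrictions were also set against each other, 2% glucose with 1 mM K against 0.5% glucose with 7 mM K. By edgeR 90 members were higher with potassium restriction and 0 with glucose restriction (20.9% and 23.1% of all genes), or 109 and 0 without replicate 2 (24.9% and 23.3% of all genes), and the median was 1.14 or 0.77. At an unadjusted p under 0.05 the counts were 109 and 0, and by DESeq2 106 and 0.

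The difference between the potassium effects at 0.5% and at 2% glucose was tested as an interaction. By edgeR 6 members were higher and 1 was lower (14.8% and 15.2% of all genes), and without replicate 2 these were 32 and 2 (23.9% and 23.6% of all genes). The median was 0.74 on the TMM scale and 0.35 without the library, and scaling by WBGene counts gave 0.03. RPL9A, RPL6B and RPS7B had the highest differences, at 2.44 ± 0.35, 1.53 ± 0.52 and 1.48 ± 0.33 (edgeR adjusted p = 0.000443, 0.0438 and 0.00597). Calls of RPL6B and RPS7B were lost with library totals and with WBGene scaling, and that of RPL6B also with upper-quartile scaling and without 9 of the 12 libraries in turn (1.12 to 1.88). RPS22B was the member that was lower, at -1.94 ± 0.20 (edgeR adjusted p = 7.99e-05).

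The ratio of A to B copy within a library does not depend on how libraries are scaled. It was tested with limma on log2 ratios of CPM per kb over 456 paralog pairs of the genome, 56 of them ribosomal. With potassium restriction at 2% glucose 8 ribosomal pairs shifted toward the A copy and 2 toward the B copy, where 35.7% of all pairs changed. Without replicate 2 at 0.5% glucose and 7 mM K there were 12 in each direction, where 54.2% of all pairs changed. At 0.5% glucose 13 shifted toward A and 14 toward B with potassium restriction (47.8% of all pairs), and 15 and 16 without the library (57.5%). Glucose restriction at 7 mM K shifted 15 toward A and 14 toward B (46.1% of all pairs), and 17 in each direction without the library (56.4%). At 1 mM K it shifted 3 toward A and 4 toward B (30.9% of all pairs), and 13 in each direction without the library (56.8%).

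With both restrictions against neither the counts were 14 and 12 (49.1% of all pairs), and 19 in each direction without the library (66.0%). Potassium against glucose restriction gave 13 and 11 (50% of all pairs), and 14 and 16 without the library (55.5%). The interaction gave 13 and 11 (35.7% of all pairs), and 14 and 18 without the library (56.4%). As a description, the median absolute change of ribosomal and of all pairs was 0.22 against 0.56 for potassium restriction at 2% glucose, 0.49 against 0.72 at 0.5% glucose, and 0.55 against 0.70 for glucose restriction at 7 mM K. That library held the highest or lowest ratio of the 12 in 36 of 56 pairs.

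**Figure D4:**
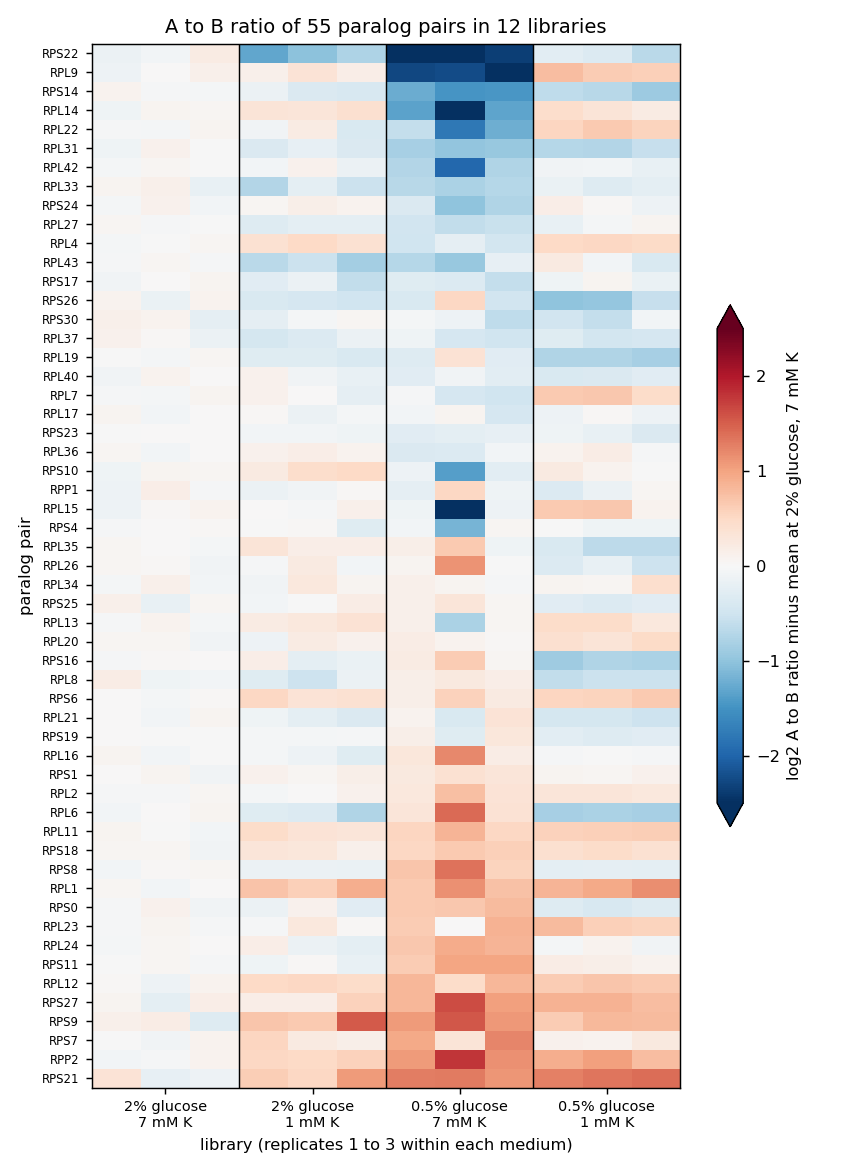
Log2 A to B ratio of 55 pairs (rows, ordered by the mean of replicates 1 and 3 at 0.5% glucose and 7 mM K) in 12 libraries (columns), as the difference from the pair's mean at 2% glucose and 7 mM K, with red toward the A copy and blue toward the B copy, and colours that saturate at 2.5. The ratios of RPS22 and RPL9 are the lowest at 0.5% glucose and 7 mM K, and 29 of the 56 pairs tested passed for that medium against 2% glucose and 7 mM K.

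RPL9, a large-subunit protein near the stalk base, shifted with little spread between replicates. Its log2 A to B ratio was -0.65, -0.53 and -0.40 at 2% glucose and 7 mM K, -0.40, -0.18 and -0.35 at 2% glucose and 1 mM K, and 0.25, 0.12 and 0.08 at 0.5% glucose and 1 mM K. At 0.5% glucose and 7 mM K it was -2.80, -2.76 and -3.04, and there replicate 2 lay with its partners. The A copy thus gave 12.1% of the pair's level in that medium and 41.0%, 44.6% and 52.6% in the other media in the order given. Glucose restriction at 7 mM K shifted the ratio by -2.34 ± 0.12 (limma adjusted p = 2.81e-07), and potassium restriction at 0.5% glucose by 3.01 ± 0.12 (limma adjusted p = 1.39e-07), or by -2.39 and 3.07 without replicate 2. At 1 mM K glucose restriction shifted it by 0.46 ± 0.12 (limma adjusted p = 0.0187; not passed without replicate 1 with both restrictions or replicate 1 or 3 at 2% glucose and 1 mM K, 0.41 to 0.52 over all libraries left out), and potassium restriction at 2% glucose gave 0.21 ± 0.12, which did not pass (limma adjusted p = 0.219).

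Both copies took part. RPL9A stood at 110.5, 111 and 127 CPM at 2% glucose and 7 mM K and at 51.5, 22.8 and 44.3 CPM at 0.5% glucose and 7 mM K, and fell by 1.55 on the log2 scale (SE 0.25, edgeR adjusted p = 0.000604). RPL9B stood at 174, 159 and 168 CPM and then at 361, 156 and 365 CPM, and rose by 0.82 ± 0.27 (edgeR adjusted p = 0.0356), or by 1.12 without replicate 2, which lay under the 2% glucose libraries. The call of RPL9B was lost without any 1 library of either group other than replicate 2 at 0.5% glucose (0.63 to 1.12 over all libraries left out) and with library totals, limma voom, the compared groups alone or a replicate block (0.77). At 1 mM K, RPL9A stood at 283, 289 and 298 CPM at 2% glucose and at 571, 583 and 462 CPM at 0.5% glucose. RPL9B stood there at 373, 328 and 380.4 CPM and at 479, 538 and 437 CPM. RPL9A therefore had its highest and its lowest libraries within 0.5% glucose, and its rise with potassium restriction there, 3.76 ± 0.27 (edgeR adjusted p = 1.97e-06; 3.50 without replicate 2), was the largest of any member. RPL9 was the only pair of 58 with calls in opposite directions for glucose restriction at 7 mM K. Without replicate 2 the pairs with opposite calls were RPL9, RPL14, RPS21 and RPS14, the last named after its values were seen.

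**Figure D5:**
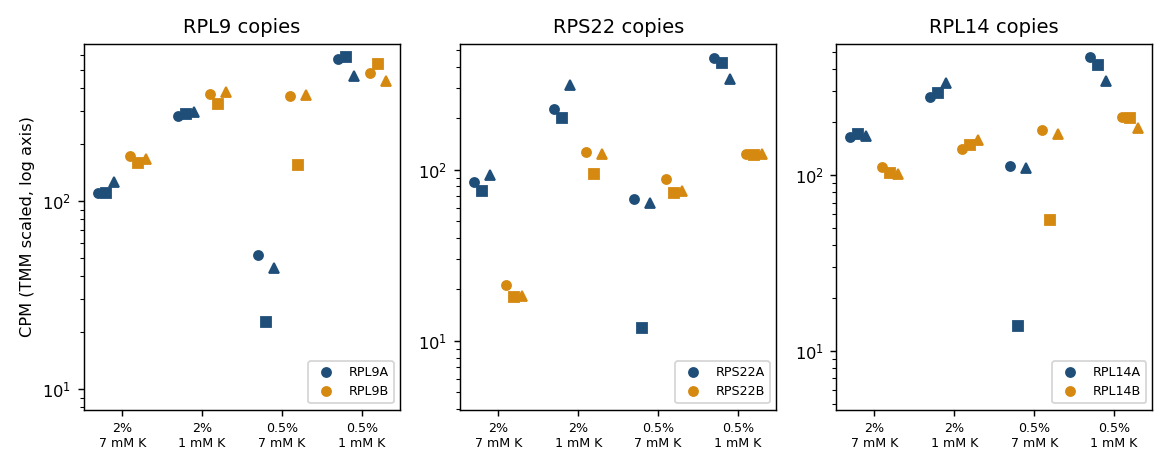
CPM after TMM scaling (vertical, log axis) of the A copy (blue) and B copy (orange) of 3 pairs in the 4 media, with circles, squares and triangles for replicates 1, 2 and 3. At 0.5% glucose and 7 mM K the A copies of RPL9, RPS22 and RPL14 lie below their B copies in all 3 libraries.

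RPS22 shifted in the same media. At 0.5% glucose RPS22B stood at 88.6, 73.3 and 75.6 CPM at 7 mM K and at 124, 123 and 123 CPM at 1 mM K. It rose by 2.05 ± 0.15 with glucose restriction at 7 mM K (edgeR adjusted p = 2.32e-06) and by 0.64 ± 0.14 with potassium restriction at 0.5% glucose (edgeR adjusted p = 0.00311), or by 2.10 and 0.60 without replicate 2. The second of these calls was lost with WBGene scaling. The lowest group was thus 2% glucose with 7 mM K, and replicate 2 at 0.5% glucose lay close to its partners. RPS22A stood at 67.4, 11.9 and 64.3 CPM and at 453, 422 and 337 CPM at 0.5% glucose, and rose by 3.07 ± 0.48 with potassium restriction (edgeR adjusted p = 0.000361), or by 2.63 without replicate 2. With glucose restriction at 7 mM K it gave -0.81 ± 0.45, which did not pass (edgeR adjusted p = 0.186), though its libraries at 0.5% glucose all lay lower. The log2 ratio went from 1.99, 2.06 and 2.33 at 2% glucose and 7 mM K to -0.39, -2.60 and -0.23 at 0.5% glucose, a shift of -3.20 ± 0.51 (limma adjusted p = 0.000637), or -2.44 without replicate 2. At 1 mM K it was 0.83, 1.10 and 1.35 at 2% glucose and 1.87, 1.78 and 1.45 at 0.5% glucose. Potassium restriction at 2% glucose gave -1.03 ± 0.51, which did not pass in limma (adjusted p = 0.149) and passed without replicate 2 at 0.5% glucose (adjusted p = 0.000509).

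RPL14, of the large subunit, also shifted toward its B copy with glucose restriction at 7 mM K. RPL14A stood at 166, 172 and 168 CPM at 2% glucose and at 113, 13.8 and 109.6 CPM at 0.5% glucose. RPL14B stood at 112, 103 and 102 CPM and at 179.9, 55.5 and 171 CPM. RPL14A lay above RPL14B in all 3 libraries at 2% glucose and below it in all 3 at 0.5% glucose. The ratio shifted by -1.77 ± 0.30 (limma adjusted p = 0.000869), or -1.33 without the library, and by 2.10 ± 0.30 back toward the A copy with potassium restriction at 0.5% glucose (limma adjusted p = 0.000348), or 1.65 without it. RPL14A was among the members that rose most there, by 2.38 ± 0.53 (edgeR adjusted p = 0.00346), or 1.90 without the library.

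RPL18B, of the large subunit, was lowest at 2% glucose and 7 mM K, with 31.6, 33.1 and 33.0 CPM. It stood at 69.5, 85.2 and 89.9 CPM at 2% glucose and 1 mM K, at 76.0, 41.7 and 74.5 CPM at 0.5% glucose and 7 mM K, and at 154, 136 and 99.3 CPM with both restrictions. Every other library thus lay above that group. It rose by 0.98 with glucose restriction at 7 mM K and by 1.99 with both restrictions against neither, and both calls held without each library in turn (edgeR, log2; 0.85 to 1.21 and 1.82 to 2.15).

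Other pairs shifted the opposite way or in other media. The ratio of RPS21 rose by 1.23 ± 0.19 with glucose restriction at 7 mM K, by 0.74 ± 0.19 with potassium restriction at 2% glucose and by 1.34 ± 0.19 with both (limma adjusted p = 0.000464, 0.0129 and 0.000277), the first being 1.19 without replicate 2 at 0.5% glucose and 7 mM K. The ratio of RPP2 rose by 1.33 ± 0.18 with glucose restriction at 7 mM K (limma adjusted p = 0.000182), or by 1.11 without that library, beside the fall of RPP2B given above. RPL22, of the large subunit, shifted by 1.78 ± 0.27 toward its A copy with potassium restriction at 0.5% glucose (limma adjusted p = 0.000486), and RPL6 by -1.51 ± 0.26 toward its B copy (limma adjusted p = 0.000945). Without the library these were 1.48 and -1.15. With potassium restriction at 2% glucose the largest shifts that passed were RPS9 at 0.96 ± 0.26, RPL1 at 0.74 ± 0.15, RPS21, and RPL43 at -0.68 ± 0.21 (limma adjusted p = 0.0151, 0.00457 and 0.0302 for RPS9, RPL1 and RPL43). Without any 1 of the libraries compared the call of RPL43 was lost, as it was with a replicate block (-0.68). That of RPS21 was lost without replicate 2 or 3 at 7 mM K (0.57 to 0.90 over all libraries left out) and that of RPS9 without replicate 3 there (0.67 to 1.12). RPL1 is among the pairs whose copies can hardly be told apart. With glucose restriction at 1 mM K the largest that passed were RPL35 at -0.78 ± 0.18, RPS16 at -0.73 ± 0.16, RPL7 at 0.62 ± 0.15 and RPS21 (limma adjusted p = 0.00813, 0.00769 and 0.00995 for the first 3). RPL35 is another pair with uncertain counts. The RPS21 call there was lost without 6 of the 12 libraries in turn (0.49 to 0.77) and with a replicate block (0.60).

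Regulators of ribosomal protein transcription, 19 genes listed for their known role, did not move as one. With potassium restriction at 2% glucose 1 rose and 7 fell, with a median of -0.48 (13.1% of all genes rose and 15.0% fell). Without replicate 2 at 0.5% glucose and 7 mM K, 1 rose and 11 fell (26.6% and 23.9% of all genes). IFH1 fell from 145 to 73.9 CPM, by 0.97 on the log2 scale (SE 0.17), and SFP1 fell from 240.2 to 140.0 CPM, by 0.78 (SE 0.14; edgeR adjusted p = 0.00132 and 0.00140), in the medium in which the members were higher. Both calls were lost with library totals and with WBGene scaling. With potassium restriction at 0.5% glucose 2 rose and 6 fell, with a median of -0.01 (23.5% and 24.9% of all genes). Without that library 3 rose and 7 fell (29.6% and 28.2% of all genes). CRF1, the corepressor gene, stood there at 169, 328 and 155 CPM at 7 mM K and at 35.8, 32.8 and 37.0 CPM at 1 mM K, and fell by 2.62 on the log2 scale (SE 0.25, edgeR adjusted p = 1.28e-05), or by 2.19 without replicate 2. Its highest library was replicate 2, in which the members were lowest. Other regulators were also higher there than in both partners, such as BCY1 (1161 against 459 and 466 CPM) and TPK2 (426 against 232 and 231 CPM). Some were lower, such as TPK3 (10.3 against 41.3 and 40.6 CPM). BCY1, TPK2 and TPK3 were named after their values were seen. HMO1 stood at 99.2, 92.6 and 85.6 CPM and then at 144, 157 and 174 CPM, a rise of 0.77 ± 0.12 (edgeR adjusted p = 0.000376), or 0.78 without replicate 2. With glucose restriction at 7 mM K 4 regulators rose and 5 fell (16.9% and 17.0% of all genes), or 4 and 7 without replicate 2 (22.0% and 21.8%). CRF1 rose by 1.24 ± 0.24, and IFH1 and HMO1 fell by 1.07 (SE 0.17) and 0.73 (SE 0.12) on the log2 scale (edgeR adjusted p = 0.00177, 0.000540 and 0.000793). Without replicate 2 the change of CRF1 was 0.82 and those of IFH1 and HMO1 were -0.92 and -0.73, and each passed. WBGene scaling ended the calls of IFH1 and HMO1 here and that of HMO1 above. With glucose restriction at 1 mM K 3 rose and 3 fell (16.3% and 18.4% of all genes), or 5 and 3 without that library (24.2% and 26.9%).

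Of 12 genes listed as chaperones and importers of ribosomal proteins, 3 rose with potassium restriction at 0.5% glucose, a share near the 23.5% of all genes that rose. Without replicate 2, 4 rose, where 29.6% of all genes did. RRB1 for Rpl3 rose by 1.83 ± 0.63, SQT1 for Rpl10 by 1.74 ± 0.47 and TSR2 for Rps26 by 1.14 ± 0.43 (edgeR adjusted p = 0.0300, 0.00998 and 0.0469), or by 1.31, 1.30 and 0.72 without replicate 2. The call of RRB1 was lost without replicate 1 or 2 at 1 mM K (1.31 to 2.37 over all libraries left out), and that of TSR2 without 8 of the 12 libraries in turn (0.72 to 1.41). All 3 were lost in the compared groups alone and with WBGene scaling. At 2% glucose 0 passed the test in edgeR, where 13.1% of all genes rose and 15.0% fell. There 1 passed in DESeq2, and 2 had an unadjusted p under 0.05 in edgeR. Without replicate 2 at 0.5% glucose and 7 mM K, 6 rose and 1 fell, where 26.6% of all genes rose and 23.9% fell. A further list held 7 ribosome-related genes, STM1, LSO2, MRT4, YVH1, DOM34, HBS1 and ASC1. Of these, 4 rose and 0 fell with potassium restriction at 0.5% glucose, where 23.5% of all genes rose. Without replicate 2, 4 rose and 1 fell, where 29.6% of all genes rose and 28.2% fell. MRT4, whose product holds the place of the stalk base in precursor ribosomes, stood at 28.2, 3.90 and 17.3 CPM at 7 mM K and at 101, 119 and 165 CPM at 1 mM K, a rise of 2.94 ± 0.48 (edgeR adjusted p = 0.000515), or 2.51 without replicate 2. YVH1, whose product releases Mrt4, rose by 1.40 ± 0.27 at 0.5% and by 1.21 ± 0.27 at 2% glucose (edgeR adjusted p = 0.00136 and 0.00576). ASC1, a scaffold protein of the small subunit, rose by 1.37 ± 0.49 and 1.55 ± 0.50 (edgeR adjusted p = 0.0380 and 0.0367). Its calls were lost without 7 of the 12 libraries in turn at 0.5% glucose (0.91 to 1.72) and without any 1 of the 6 compared at 2% glucose, where a replicate block (1.57) and limma voom also ended it. At 0.5% glucose library totals, WBGene scaling and the compared groups alone ended it.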

How the data were processed

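RNA from yeast strain BY4742 was sequenced as 150-base read pairs in 12 libraries. Per the labels' protocols, reads were aligned to build R64 with STAR 2.7.1a, and the submitters' processing notes also name RSEM 1.3.3. The authors deposited 1 table of expected counts per gene, all whole (0 exceptions). The annotation and strand setting behind the counts are not given in the sources used here. Of 46904 rows, 7127 carried SGD identifiers, of which 6444 matched the R64 annotation. The other 39777 carried WBGene identifiers and served only as an alternative scaling.

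Genes were tested over all SGD rows with edgeR 4.0.16 (default count filter, TMM, quasi-likelihood test with robust estimation, 1 mean per group, all 12 libraries, 8 residual degrees of freedom, common biological coefficient of variation 0.2405), with Benjamini-Hochberg adjustment over all genes tested and a threshold of 0.05. Paralog ratios were log2 ratios of CPM per kb of coding length plus a pseudocount of 0.5. They were tested with limma 3.58.1 (trend on the level of the weaker copy, robust) over 456 pairs, made of reciprocal best BLAST 2.17.0 protein matches (at least 40% identity over 70% of the length) and the named ribosomal pairs, with both copies at a mean of 10 CPM or more. Sequences were read from the RefSeq R64 genome. Motif letters were searched on both strands. Errors beside CPM are SD and those beside log2 changes are SE, and p-values rest on the spread of replicates as the labels give them. Counting intervals were not used, since each library held at least 5634205 yeast counts.

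The members, the lists and most tests were chosen with earlier results of these data known. Named genes were RPS22A, RPS22B, RPL18B, the stalk genes, the 3 highest and 3 lowest called members and the 4 largest called ratio changes per comparison, the highest and lowest levels, the 3 most and least equal pairs, the pairs on either side of the 10 CPM filter, and up to 3 called genes per list. Alternatives were DESeq2 1.42.0, upper-quartile scaling, library totals, WBGene scaling, TMM without the members, no and a stricter count filter, limma voom, the compared groups alone, a replicate block, each library left out, other pseudocounts and filters for ratios, and pairs whose copies can be told apart. Chosen after seeing the data were quality weights, the counts given without replicate 2 at 0.5% glucose and 7 mM K, and shares without each library. 1 member and its pair's ratio are counted in the totals but not reported here. The procedures were tested on simulated data. R 4.3.3 and Python 3.11.15 were used.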

Additional observations from a re-analysis of the deposited data

Results flagged for a closer look

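The effect of potassium restriction differed between 0.5% and 2% glucose, by a test of the difference itself, for 5 named genes and 11 named pairs. Some were named because this test passed, so their number says nothing about the members as a set. Among the members 6 were called higher and 1 lower. Of all genes 14.8% were called higher and 15.2% lower, and 35.7% of all pairs changed. Without replicate 2 at 0.5% glucose and 7 mM K these shares were 23.9%, 23.6% and 56.4%. A positive value means a larger change at 0.5% glucose. By edgeR the difference was 2.44 ± 0.35 for RPL9A, 1.53 ± 0.52 for RPL6B, 1.48 ± 0.33 for RPS7B, 1.47 ± 0.46 for RPP0 and -1.94 ± 0.20 for RPS22B (log2, SE). Without replicate 2 at 0.5% glucose and 7 mM K these were 2.16 for RPL9A, 1.12 for RPL6B, 1.23 for RPS7B and 1.13 for RPP0, and each of the 5 still passed. The calls of RPP0 and RPL6B were lost with library totals, upper-quartile and WBGene scaling, and that of RPS7B with the first and last of these.

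For the A to B ratio, by limma, differences toward the A copy were 3.81 ± 0.73 for RPS22, 2.80 ± 0.18 for RPL9, 1.86 ± 0.38 for RPL22, 1.76 ± 0.42 for RPL14, 1.23 ± 0.30 for RPL43 and 0.94 ± 0.21 for RPL7. Those toward the B copy were -1.45 ± 0.36 for RPS9, -1.05 ± 0.37 for RPL6, -1.02 ± 0.23 for RPS16, -1.01 ± 0.25 for RPL35 and -0.96 ± 0.25 for RPP2. Each kept its sign and passed without that library, and RPS22 then stood at 3.05 and RPL9 at 2.85. The RPL6 call was lost with a replicate block (-1.05). The copies of RPL35 can hardly be told apart by sequence.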

How the results depend on the processing

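The number of ribosomal protein genes called moved with the libraries in the fit. Leaving out each library in turn gave 7 to 118 called genes for potassium restriction at 2% glucose (14 with all), 85 to 122 at 0.5% glucose (113), 5 to 38 for glucose restriction at 7 mM K (18), 1 to 32 at 1 mM K (2), 15 to 123 for both restrictions (45), 51 to 109 for potassium against glucose restriction (90) and 3 to 34 for the interaction (7). The highest of each range came without replicate 2 at 0.5% glucose and 7 mM K. The lowest count for potassium restriction at 2% glucose, 7, came without replicate 2 or 3 at 2% glucose and 7 mM K or replicate 3 at 1 mM K, and 51 for potassium against glucose restriction came without the last of these. Without 1 library at 2% glucose and 7 mM K the count for glucose restriction there was 5 or 6 and for both restrictions 15 to 18. Without replicate 1 or 2 with both restrictions it was 17 for both and 3 for the interaction. For ratios the ranges were 3 to 24 (10), 20 to 31 (27), 25 to 34 (29), 3 to 26 (7), 17 to 38 (26), 20 to 30 (24) and 17 to 32 (24) in the same order. Fits to the compared groups alone called 127, 40, 4, 14, 116 and 21 genes in the 6 pairwise comparisons, and 24 pairs for potassium restriction at 2% glucose, 16 at 0.5% glucose, 17 at 1 mM K with glucose restriction and 11 for potassium against glucose restriction. Voom with quality weights called 120, 71, 72, 130 and 85 genes for potassium restriction at 2% glucose, glucose restriction at 7 and at 1 mM K, both restrictions and the interaction. Array quality weights called 29 pairs for potassium restriction at 2% glucose and 29 for glucose restriction at 1 mM K. Limma voom called 27 genes for both restrictions, and DESeq2 called 16 for the interaction. Library totals called 68 genes for potassium restriction at 0.5% glucose, 5 and 0 for glucose restriction at 7 and 1 mM K, 20 for both and 2 for the interaction. WBGene scaling called 29, 4, 0, 13 and 2 in that order and 43 for potassium against glucose restriction. Upper-quartile scaling called 27 for potassium restriction at 2% glucose, 9 at 7 mM K and 1 at 1 mM K with glucose restriction, and 3 for the interaction. The cause was not tested. Shares of all genes called are given above only for all libraries and without replicate 2 at 0.5% glucose and 7 mM K. Under the other settings these counts cannot tell a change in the members from a change in calls over all genes. WBGene scaling moved the median of all genes by as much as -0.63 (interaction) and -0.45 (glucose restriction at 1 mM K), and the members' median then lay 0.67 and 0.22 above it, against 0.76 and 0.20 with TMM. Potassium restriction at each glucose level kept all 134 members above 0 under each of the 6 scalings tried. Across genes, deviations of same-numbered replicates from their group means correlated at -0.37 to 0.33. Libraries of unlike number were not compared, so these values cannot settle whether replicates were paired. With a replicate block, edgeR called 12, 112, 15, 1, 40, 91 and 5 genes, and limma called 6 pairs for potassium restriction at 2% glucose. Pairs that can be told apart gave 6 there. Leaving out each library of a group in turn gave shares of 3.65% to 3.72%, 6.07% to 6.56%, 2.27% to 3.77% and 5.66% to 7.25% for 2% glucose with 7 and 1 mM K and 0.5% glucose with 7 and 1 mM K. Over all rows of the table the shares were 2.31% and 4.07% at 2% glucose and 3.82% at 0.5% glucose with 1 mM K. The Rap1 letters stood at 39.4% of members in the longer window. No called change given for a named gene or pair changed sign under any alternative run. The median of the members for glucose restriction at 1 mM K did, with library totals and WBGene scaling. Under each of them the RPL9 ratio passed for the interaction and for both comparisons of 1 factor that involve 0.5% glucose with 7 mM K. So did RPS22B for the interaction and for each single restriction from 2% glucose and 7 mM K. The interaction call of RPP0 was lost without 6 of the libraries in turn, that of the RPL6 ratio without 8, and that of RPL6B without 9. Short genes and near-identical copies limit what depth can resolve.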
